A study of Mus musculus with 11 samples.

Results

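The glucocorticoid receptor gene and 9 genes tied to it in the brain were examined in the cerebrum of Polg mutator mice. The 10 genes were taken by their symbols from a table of 36666 genes, and all 10 passed the filter on low counts that left 17983 genes for testing. The 2 receptors were Nr3c1 and Nr3c2, and the 8 targets were Fkbp5, Sgk1, Tsc22d3, Zbtb16, Sult1a1, Errfi1, Plin4 and Map3k6. RNA came from 11 male mice of strain C57/Bl6 at 1 year of age. Of these, 7 were mutators (D257A/D257A) and 4 were control littermates, 3 of them WT/WT and 1 WT/D257A, all bred from heterozygotes. The mutation is a knock-in in every cell that removes the proofreading of the mitochondrial DNA polymerase. Besides genotype the groups differed in body condition, since signs of early ageing and a lower body weight are recorded for the mutators. The mutation is a point change, so the level of Polg mRNA does not check the genotype.

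The glucocorticoid receptor, encoded by Nr3c1, rests in the cytoplasm on heat shock chaperones until corticosterone binds it. It then enters the nucleus, binds DNA at glucocorticoid response elements and raises or lowers nearby genes. The mineralocorticoid receptor, encoded by Nr3c2, binds the same hormone with higher affinity and is abundant in the hippocampus. The targets are used as readouts of hormone exposure in the brain, where several of them are known in glia and in blood vessels.

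Gene counts per mouse ranged from 28249345 to 121182250. For 10 mice they came to 0.744 to 0.775 counts per aligned read in the submitters' table of read totals. For mutator 248 they came to 3.00 counts per aligned read, so its counts exceeded the aligned reads listed for it, and results without this library are given below. Levels are CPM, counts per library size with the TMM factors of edgeR, and a fold change is the log2 ratio of mutator over control from edgeR's quasi-likelihood test. Adjusted p-values are by the Benjamini-Hochberg method over all genes tested, and a gene was called where this was under 0.05. In tissue RNA, fewer cells of a type and less RNA per cell cannot be told apart. Neuronal and glial markers were present in every library, with the sum over 5 neuronal markers at 5324 to 5668 CPM in controls and 5180 to 5562 CPM in mutators.

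The response element is a palindrome, and its letters were searched around the transcript starts of the genes. The strict form searched was GAACA, then 3 bases of any kind, then TGTTC. The relaxed form was GNACA, 3 bases of any kind and TGTNC, where N is any base. Both read the same on either strand, so that 1 search covers both strands, and every strict match is also a relaxed match. Among windows of 5000 bases on each side of a transcript start, over 62528 starts of tested genes in mm9, 1.239% held the strict form and 16.09% the relaxed form. By gene, 2.17% of the tested genes matched to the annotation had the strict form at 1 or more starts. Fkbp5 and Sgk1 had it. These matches are shown because they carry the strict form, with the match in capitals and 8 bases on each side, on the strand of the gene. The Map3k6 match is shown beside them as a relaxed one close to a start.
Fkbp5, chr17:28579357-28579385, minus strand of mm9: ttgtttgaGAACAGCTTGTTCtaggcttt
Sgk1, chr10:21713500-21713528, plus strand of mm9: tgcggaaaGAACAGAATGTTCtcggagat
Map3k6, chr4:132796544-132796572, plus strand of mm9: gaatagggGCACAGGCTGTTCcggaagtg
The Fkbp5 match lay 704 bases upstream of an internal start of that gene. The Sgk1 match lay 182 bases upstream of a start, and the same strict form was in 1 of the 6 RefSeq promoters of Sgk1 (GRCm38), against 0.0578% of 32851 such promoters of 300 bases. Map3k6 had only the relaxed form, 175 bases upstream of its start. The relaxed form was present at 1 or more starts of 5 of the 10 genes, these 3 with Nr3c2 and Plin4, against 24.48% of tested genes, and there was none for Nr3c1, Tsc22d3, Zbtb16, Sult1a1 and Errfi1. A match shows only that the letters are present, and says nothing of binding in these animals.

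Neither receptor was called. Nr3c1 was at 130, 118, 125 and 128 CPM in controls 205, 237, 239 and 246. In mutators 207, 211, 217, 236, 240, 248 and 249 it was at 113, 130, 121, 113, 121, 132 and 112 CPM. The groups overlapped, and the log2 fold change was -0.06 ± 0.05 (SE, adjusted p = 0.634 by edgeR). Nr3c2 was at 66.0, 67.9, 68.9 and 66.0 CPM in the same controls and between 59.7 and 72.6 CPM in the mutators, with a median of 66.0 CPM. Its log2 fold change was -0.03 ± 0.05 (SE, adjusted p = 0.846 by edgeR). The number of Nr3c2 counts per Nr3c1 count needs no library size. It was 0.539 ± 0.032 (SD, n = 4) in controls and 0.550 ± 0.043 (SD, n = 7) in mutators, a difference of 0.03 in mean log2 ratio that was smaller than the spread between mice (exact permutation of the group labels, 2-sided, p = 0.658).

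All 8 targets had a log2 fold change above 0, and 1 of them, Sult1a1, was called. Over all genes tested, 50.4% had a log2 fold change above 0 and 1.24% were called, 0.439% as higher in mutators and 0.801% as lower. In 5 of the 8 targets the unadjusted p was under 0.05, against 15.8% of all genes. In 3 of the 8 every mutator was above every control, against 1.2% of all genes, and in none was every mutator below every control, against 1.42%, so that 2.62% of all genes did not overlap either way. The median log2 fold change was 0.45 over the 8 targets and 0.00139 over all genes tested. The 10 genes were chosen with earlier results of these data known, so these counts are a description. Without mutator 248, Sult1a1 was again the 1 member called and all 8 targets had a log2 fold change above 0.

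**Figure D1:**
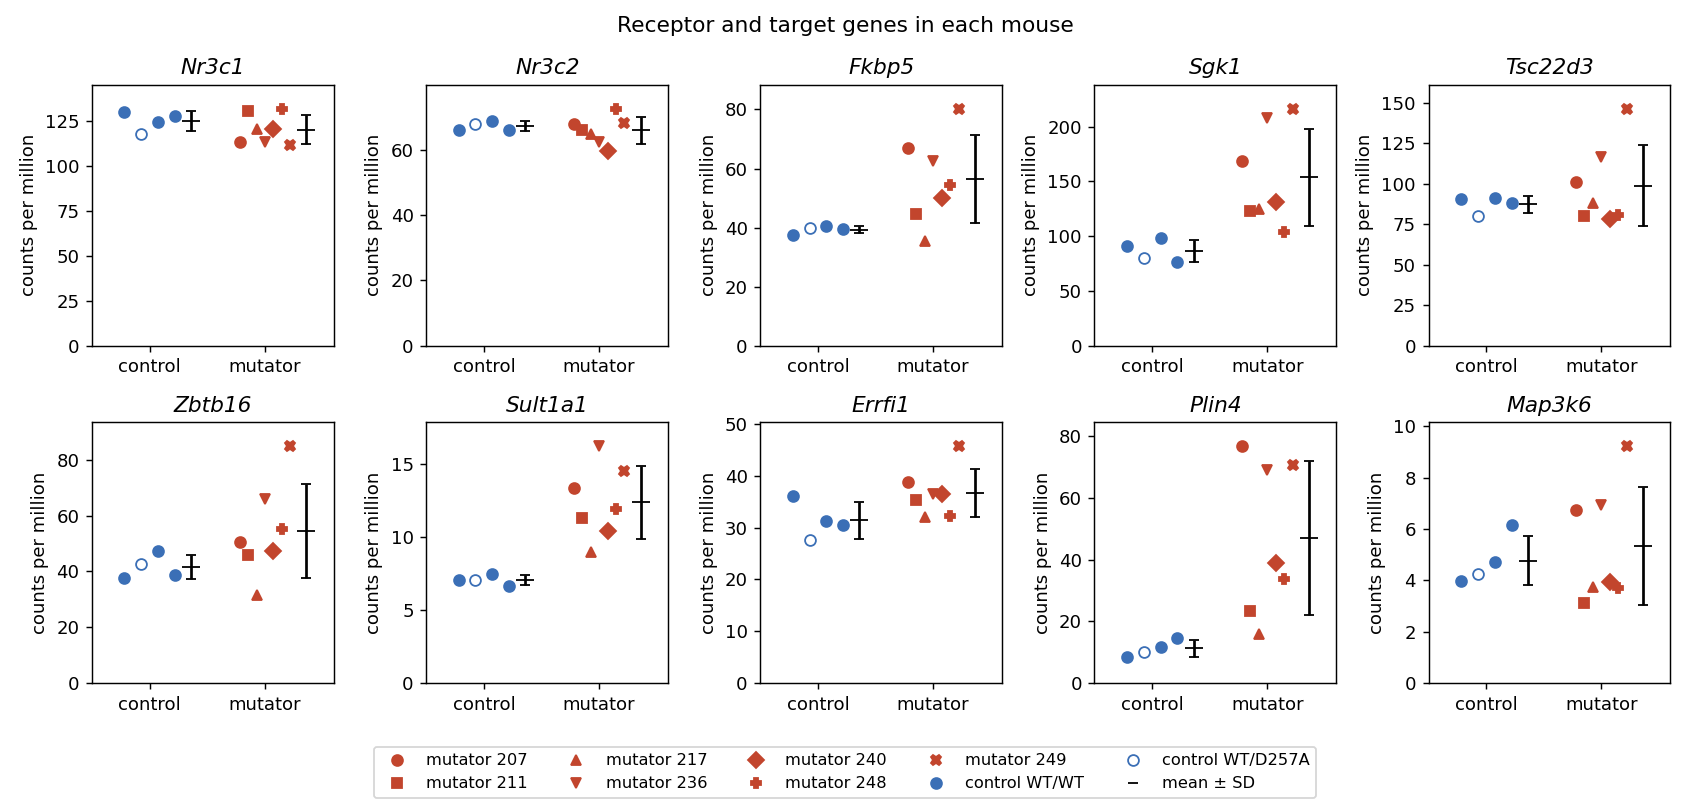
CPM of each gene (y axis, from 0) in each control and mutator mouse (x axis), with 1 marker shape per mutator, an open circle for the WT/D257A control and the mean ± SD of each group in black. Sgk1, Sult1a1 and Plin4 are higher in all 7 mutators than in all 4 controls, and mutator 249 is the highest for 6 of the 8 targets.

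Sult1a1 encodes a phenol sulfotransferase, which adds sulfate to small phenols and makes them more soluble. It was at 7.04, 7.05, 7.48 and 6.65 CPM in controls 205, 237, 239 and 246. In mutators 207, 211, 217, 236, 240, 248 and 249 it was at 13.3, 11.3, 8.92, 16.2, 10.4, 11.9 and 14.5 CPM. The lowest mutator was above the highest control, and the mean rose from 7.05 ± 0.34 CPM (SD, n = 4) to 12.4 ± 2.49 CPM (SD, n = 7). The log2 fold change was 0.80 ± 0.13 (SE, adjusted p = 0.00483 by edgeR). It was called in all 19 alternative settings, with adjusted p from 2.311e-07 with DESeq2 to 0.0387 against the 3 WT/WT controls only, which is the fit without control 237, and without mutator 248 the log2 fold change was 0.81 (adjusted p = 0.0119 by edgeR).

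Plin4 had the largest fold change of the 10 genes. It encodes perilipin 4, a protein that coats lipid droplets. It was at 8.51, 9.97, 11.8 and 14.8 CPM in controls 205, 237, 239 and 246. In mutators 207, 211, 217, 236, 240, 248 and 249 it was at 76.9, 23.3, 15.8, 69.2, 38.9, 33.7 and 70.8 CPM. The groups did not overlap, but mutator 217 was close to the highest control, and the mutators spanned 4.87-fold. The log2 fold change was 2.09 ± 0.50 (SE, adjusted p = 0.0844 by edgeR), which missed the threshold. It was called in 2 of 19 alternatives, with DESeq2 (adjusted p = 4.98e-04) and without mutator 217 (adjusted p = 0.0392), and over the 19 the adjusted p reached 0.284. Without mutator 248 the log2 fold change was 2.16 (adjusted p = 0.12 by edgeR). Of the 5 adipocyte markers, 4 were too low to test, with at most 6 counts in any mouse, and the fifth, Retn, was at 0.290 CPM in controls and 0.271 CPM in mutators.

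Sgk1 encodes a kinase that regulates ion channels and transporters, and is a long-known early target of glucocorticoids. It was at 91.1, 80.1, 98.5 and 76.5 CPM in controls 205, 237, 239 and 246. In mutators 207, 211, 217, 236, 240, 248 and 249 it was at 169, 123, 124, 208, 131, 104 and 216 CPM. The groups did not overlap, and the log2 fold change was 0.82 ± 0.23 (SE, adjusted p = 0.123 by edgeR). It was called in 1 of 19 alternatives, DESeq2 (adjusted p = 0.0135), and over the 19 the adjusted p reached 0.374. Without mutator 248 the log2 fold change was 0.90 (adjusted p = 0.105 by edgeR). Simulated counts with 200 changed genes gave 13.8% false calls with DESeq2 and 5.69% with edgeR, so the calls that DESeq2 adds are less certain. The simulation gave both groups the same dispersion, so it does not cover a spread that differs between them. For Sgk1 the SD of log2 CPM was 0.168 in controls and 0.410 in mutators. Sgk1 is also expressed in oligodendrocytes, whose 6 markers summed to 4854 to 5564 CPM in controls and 4744 to 6667 CPM in mutators, with none called.

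Fkbp5 encodes a chaperone partner that lowers the hormone affinity of the receptor, so that its induction acts as a brake. It was at 37.5, 39.8, 40.5 and 39.4 CPM in controls 205, 237, 239 and 246, a narrow range. In mutators 207, 211, 217, 236, 240, 248 and 249 it was at 67.1, 44.6, 35.5, 62.6, 49.99, 54.5 and 80.3 CPM. In 6 of 7 mutators it was above every control, and in mutator 217 it was below every control. The log2 fold change was 0.52 ± 0.20 (SE, unadjusted p = 0.028, adjusted p = 0.248 by edgeR), and it was called in none of the 19 alternatives.

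Errfi1 encodes an inhibitor of the epidermal growth factor receptor. It was between 27.7 and 36.2 CPM in controls and between 32.0 and 45.7 CPM in mutators, with a log2 fold change of 0.22 ± 0.09 (SE, adjusted p = 0.233 by edgeR). Zbtb16 encodes a zinc finger transcription factor, and was between 37.8 and 47.3 CPM in controls and between 31.7 and 84.9 CPM in mutators, with a log2 fold change of 0.39 ± 0.23 (SE, adjusted p = 0.466 by edgeR) that was 0.25 without mutator 249. Tsc22d3 encodes the glucocorticoid-induced leucine zipper protein, and was between 79.7 and 91.0 CPM in controls and between 78.3 and 146 CPM in mutators, with a log2 fold change of 0.17 ± 0.18 (SE, adjusted p = 0.689 by edgeR). Its log2 fold change fell to 0.06 without mutator 249. Map3k6, a kinase of stress signalling, was the lowest of the 10, at 3.99 to 6.14 CPM in controls and 3.10 to 9.23 CPM in mutators. Its log2 fold change was 0.17 ± 0.31 (SE, adjusted p = 0.841 by edgeR) and ran from 0.00202 without mutator 249 to 0.30 without control 246. None of these 4 was called in any alternative.

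**Figure D2:**
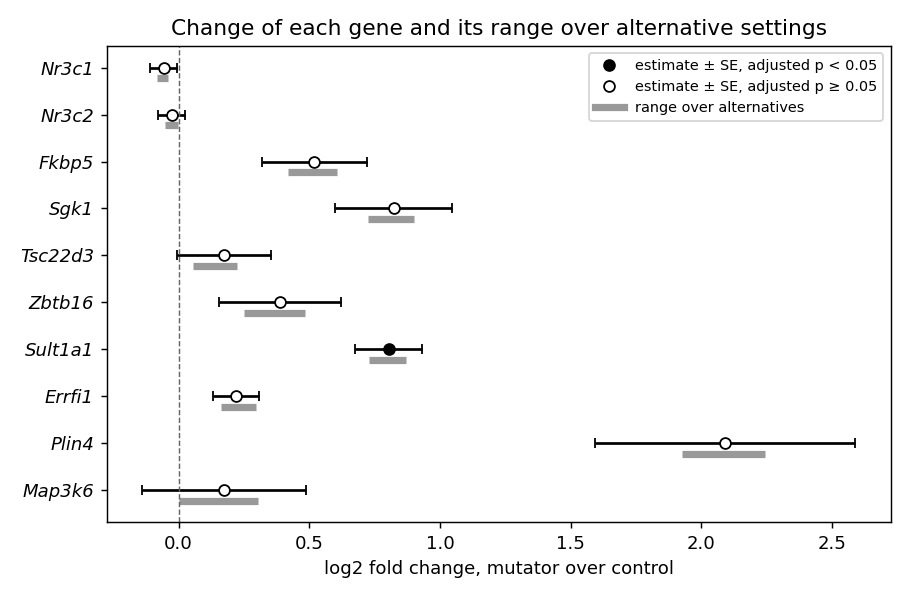
Log2 fold change of mutator over control (x axis) for each gene (y axis), with its SE, filled where the adjusted p is under 0.05. The grey bars span the 19 alternative settings, and no gene changed direction in them.

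Levels of different genes can be compared only per length, so CPM was divided by the merged exon length in kilobases. In controls the order ran from Tsc22d3 at 20.1 ± 1.2 (SD, n = 4) and Sgk1 at 17.7 ± 2.06 through Nr3c1 at 16.8 ± 0.73 to Plin4 at 1.96 ± 0.47 and Map3k6 at 1.04 ± 0.21 CPM per kilobase. In mutators Sgk1 stood first at 31.3 ± 9.09 (SD, n = 7), and Plin4 was at 8.16 ± 4.33, beside Sult1a1 at 8.20 ± 1.65 and Fkbp5 at 8.92 ± 2.37 CPM per kilobase. These 3 neighbours did not differ beyond their spread.

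The spread among the mice also differed. The SD of log2 CPM in mutators was over 2 times that in controls for 8 of the 10 genes, against 15% of all genes tested, and the median ratio was 2.77 over the 10 genes and 1.06 over all. It was largest for Fkbp5, at 8.14, and smallest for Errfi1, at 1.09. These ratios compare 7 mutators with 4 controls and were looked at after the values were seen, so they are given without a test.

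The same mice were high for most targets. Mutator 249 was highest for 6 of the 8 targets and among the first 3 for all 8. Mutators 207 and 236 were among the first 3 for 7 of the 8. Mutator 217 was lowest for 5 of the 8, and its median level over the targets was 1.01 times the control mean, against 2.04 times in mutator 249. The gene counts of mutators 249, 207 and 236 were 37821243, 74482674 and 55741011, and that of mutator 217 was 54775881, within the range of the other libraries.

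Within the 7 mutators, all 28 pairs of targets had a positive Pearson r of log2 CPM, from 0.62 to 0.95 with a median of 0.80. Spearman's rho ran from 0.43 to 0.96, and 45 pairs of the 10 genes were computed in all. With the exact permutation p over all orders of the 7 mice, adjusted over the 45 pairs, 6 pairs were under 0.05 by r and 3 by rho. Tsc22d3 with Map3k6 had the highest r, at 0.95 (rho 0.79, exact p = 0.00357 for r and 0.048 for rho, adjusted p = 0.0446 and 0.142), and 0.88 without the 2 mice farthest from the median of Tsc22d3. Sgk1 with Map3k6 was at 0.93 (rho 0.96, exact p = 0.00496 and 0.00278, adjusted p = 0.0446 and 0.0417), and 0.83 without the 2 mice farthest from the median of Sgk1. Fkbp5 with Plin4 was at 0.95 (rho 0.93, exact p = 0.00179 and 0.00675, adjusted p = 0.0446 and 0.0759), and 0.96 without the 2 mice farthest from the median of Fkbp5. Leaving those 2 mice out of every pair, 25 of the 28 pairs of targets stayed positive, with a median r of 0.67. Pairs of genes outside the 10 were not computed over the mutators. Whether such values of r are particular to the targets was not tested.

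Over the mutators, the r of Nr3c1 was negative with all 8 targets, from -0.91 with Sgk1 to -0.44 with Zbtb16. With Sgk1 the 7 mutators were in exactly reversed order (rho -1.0, exact p = 3.97e-04, adjusted p = 0.0179), while r was -0.91 (exact p = 0.00814, adjusted p = 0.0523) and -0.96 without the 2 mice farthest from the median of Nr3c1. With Map3k6 it was -0.89 (rho -0.96, exact p = 0.00536 and 0.00278, adjusted p = 0.0446 and 0.0417), and -0.99 without those mice. Nr3c1 itself ranged only 1.18-fold over the mutators. Nr3c2 had r between -0.19 and 0.27 with the targets, and no pair passed. With any 1 mutator left out, no pair of the 45 passed by r. The exact test then has so few orders that 1 pair alone cannot pass, with 0.0625 as its lowest adjusted p. These fits therefore do not show whether a pair rests on 1 mouse. In them the r of Nr3c1 with Sgk1 ran from -0.94 to -0.87. Without mutator 248, r of Nr3c1 with Sgk1 was -0.87 (rho -1.0, exact p = 0.0347 and 0.00278, adjusted p = 0.0855 and 0.0417), and the median r over the pairs of targets was 0.87.

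**Figure D3:**
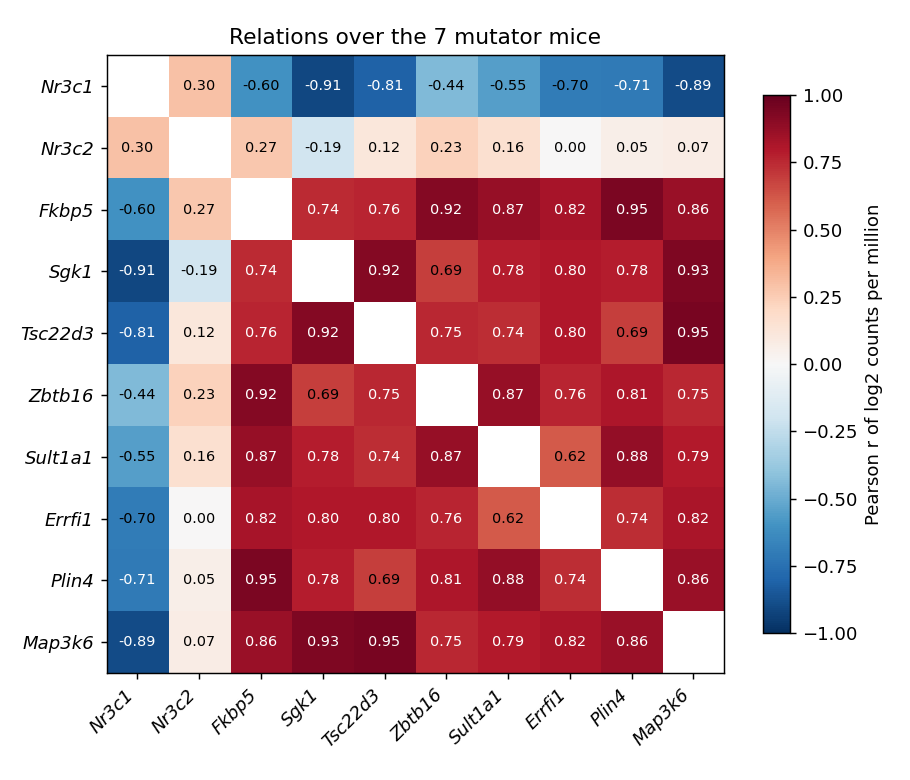
Pearson r of log2 CPM over the 7 mutators for each pair of genes (both axes), coloured from -1 in blue to 1 in red. The 8 targets are positive with each other, from 0.62 to 0.95, and Nr3c1 is negative with all 8.

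The genes whose levels moved most like 3 of the targets were named by a rule, from log2 CPM centred within each group over the 11 mice. For Fkbp5 these were Islr2, A430108G06Rik, Zhx3, Fam189a1 and Foxo3, with r from 0.94 to 0.92, and Plin4 ranked sixth at 0.92. Among the 14699 genes compared, Zbtb16 ranked 13, Sult1a1 39, Map3k6 74, Tsc22d3 223, Sgk1 331 and Errfi1 560. For Sgk1 the genes named were Mfsd2a, Irs2, Coro2a, Nipal3 and Arrdc2, with r from 0.94 to 0.91. The other targets ranked from 9 (Tsc22d3) to 402 (Zbtb16). For Plin4 the genes named were Cyfip2, Hif3a, Spock1, Pcsk2 and Fam189a1, with r from 0.95 to 0.93. The other targets ranked from 6 (Fkbp5) to 1296 (Errfi1). Fam189a1 was named for both Fkbp5 and Plin4, and none of the named genes was called between the groups. Arrdc2 and Hif3a are in the list of other glucocorticoid-induced genes.

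Counts per exon bin were given for 10 mice, without the WT/D257A control. Of the 201 bins of the 10 genes, 140 were tested, and none was called for a difference in use (edgeR diffSpliceDGE over 206930 bins, lowest adjusted p = 1). Over all bins, 0.0237% were called and 1.9% had an unadjusted p under 0.05, against 6 of the 140. Plin4 was higher in the mean of the mutators in 9 of 9 tested bins, with log2 ratios from 1.77 to 2.23. Sult1a1 was higher in 14 of 14, from 0.17 to 1.17. Fkbp5 was higher in 13 of 13, from 0.44 to 0.63.

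Sgk1 was higher in 23 of 28 tested bins, and the 5 others lay at its far 5' end. The bins with the lowest unadjusted p for use among the members were Sgk1 bin 2, with a log2 change in use of -1.005, Nr3c2 bin 4, at 0.57, and Sgk1 bin 6, at -0.89 (adjusted p = 1 for each by edgeR). The bins upstream of the strict motif shown above summed to 6.19, 6.43 and 6.64 CPM in controls 205, 239 and 246, and to between 5.48 and 6.27 CPM in the mutators. The bins downstream of it summed to 116, 126 and 96.7 CPM in these controls and to between 132 and 289 CPM in the mutators. Bin 10, which begins at the start next to the motif, was at 0.304 ± 0.072 CPM (SD) in these controls and 0.346 ± 0.164 CPM in the mutators. Bin 11, which was not tested, was at 0.118 and 0.065 CPM. The higher levels in mutators thus lay from bin 12 on, not in the exon at that start. The division at the motif was drawn after the bin values were seen, so it is given without a test.

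**Figure D4:**
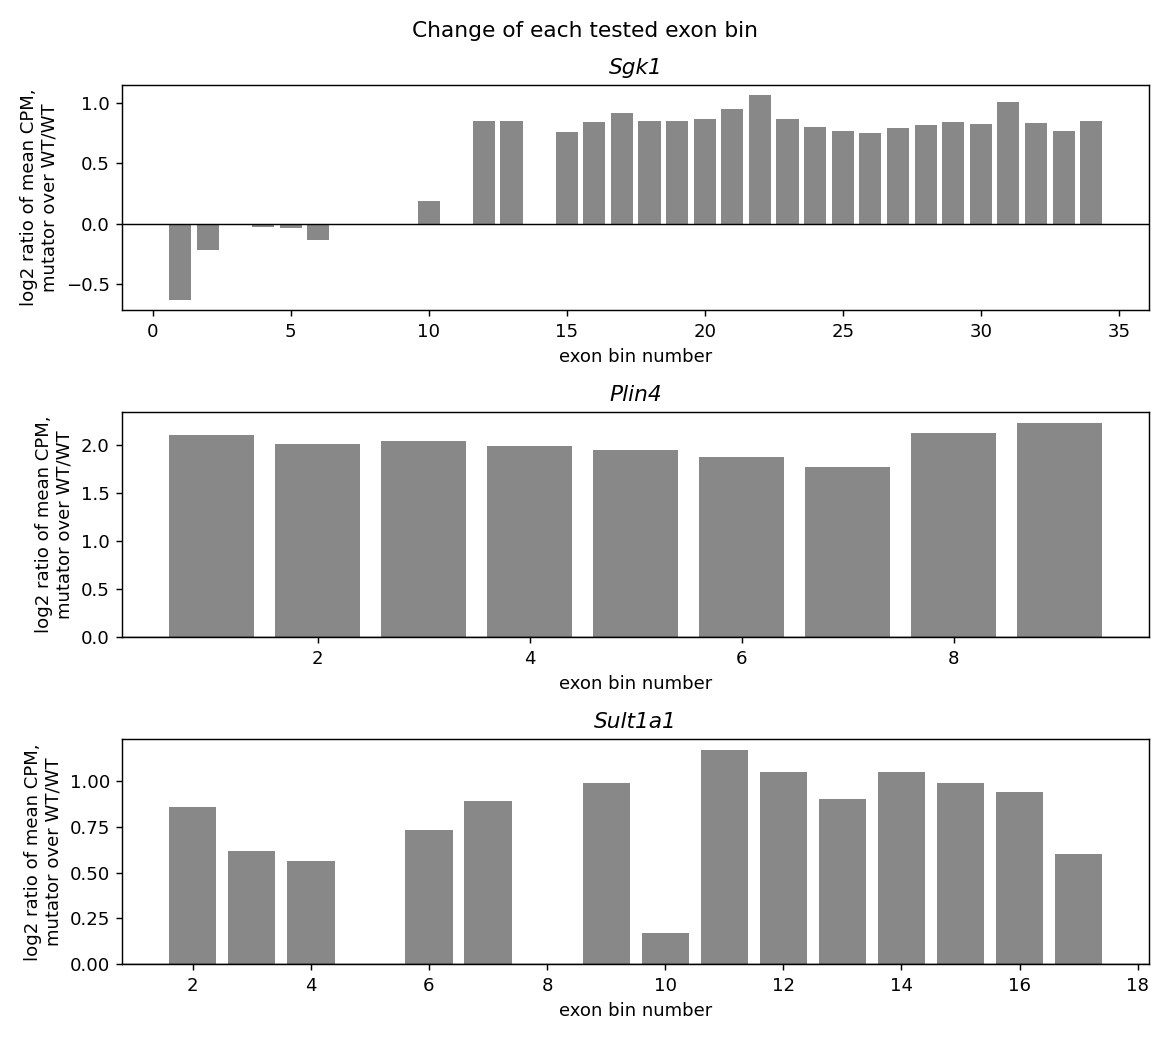
Log2 ratio of mean CPM, mutator over WT/WT (y axis), of each tested exon bin (x axis, numbered along the genome) of Sgk1, Plin4 and Sult1a1. The first bins of Sgk1 lie below 0 while those from bin 12 on lie near the median over its bins of 0.83, and the bins of Plin4 and Sult1a1 all lie above 0.

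Of 24 other genes induced by glucocorticoids, 19 had a log2 fold change above 0, against 50.4% of all genes tested. None was called, against 1.24%, and 5 had an unadjusted p under 0.05, against 15.8%. The median log2 fold change of the 24 was 0.21. The lowest p were those of Angptl4, an inhibitor of lipoprotein lipase, at 0.73 ± 0.20 (SE, adjusted p = 0.0681 by edgeR), and Gjb6, an astrocyte gap junction protein, at 0.26 ± 0.07 (SE, adjusted p = 0.0799 by edgeR). Per1 and Dusp1, which respond quickly to the hormone, were among the 5 below 0, with log2 fold changes of -0.00239 and -0.21. Of the 19 above 0, Txnip was at 0.55 and Ddit4 at 0.32, both with an unadjusted p under 0.05 by edgeR. Of 12 receptor chaperones 5 were above 0, and of 10 coregulators 7, with none called in either list. The lowest p were those of Bag1 at -0.11 and St13 at 0.08 among the chaperones, and of Ep300 at 0.11 and Crebbp at 0.13 among the coregulators, which acetylate histones. Bag1 was at -0.07 without control 246, and St13 at 0.05 without control 237. Of 8 genes lowered by glucocorticoids 6 were tested, 2 were above 0 and none was called, with Il1b at -1.03 ± 0.45 and Crh at -0.23 ± 0.12 (SE). The value of Il1b rested on control 246 and was -0.25 without it.

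Genes of steroid supply and the stress axis were called in 0 of 11 tested, with 5 at an unadjusted p under 0.05 by edgeR. Over all genes tested these shares were 1.24% and 15.8%. Hsd11b1, which regenerates active corticosterone in the cell, went from 16.6 ± 0.85 (SD, n = 4) to 13.2 ± 2.19 CPM (SD, n = 7), a log2 fold change of -0.33 ± 0.11 (SE, adjusted p = 0.135 by edgeR). Avp, the vasopressin precursor, went from 7.53 ± 2.48 to 20.3 ± 6.47 CPM, a log2 fold change of 1.39 ± 0.33 (SE, adjusted p = 0.0807 by edgeR). Avp and Oxt come from hypothalamic neurons, and how much hypothalamus each dissection held was not tested.

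Genes that could move with the targets were listed by cell type and state, and are set beside the 1.24% of all genes tested that were called. In the mural cell list 1 of 8 was called, Abcc9, at 0.64 (adjusted p = 4.33e-04 by edgeR). In the mural list 4 genes were above 0 and 4 below, with Acta2 the lowest at -0.53 (adjusted p = 0.0821 by edgeR). In the endothelial list none of 8 was called, with 5 above 0 and 3 below. Its sum was 215 to 260 CPM in controls and 226 to 293 CPM in mutators. Of 8 hypoxia-induced genes 2 were called, Vegfa at 0.38 (adjusted p = 0.0266) and Adm at 1.105 (adjusted p = 0.0134 by edgeR). In this list 7 were above 0, against 50.4% of all genes, and 4 had an unadjusted p under 0.05 by edgeR, against 15.8%. In 3 of the 8 every mutator was above every control, as in 3 of the 8 targets, against 1.2% of all genes. Of 9 clock genes Dbp was called, at -0.37 (adjusted p = 0.0241 by edgeR). All 8 immediate early genes were below 0, with none called, where 50.4% of all genes were above 0. All 6 microglia and all 3 tested skeletal muscle markers were also below 0, and all 6 blood cell genes were above 0. Among the immediate early genes the lowest p were those of Arc at -0.55 and Ier2 at -0.42, and in the endothelial list of Kdr at 0.84 and Flt1 at 0.36. None was called among 6 astrocyte, 6 microglia, 5 tested neuronal, 4 choroid plexus and 3 tested skeletal muscle markers, where the lowest p were those of Slc1a2 at -0.13 and Gfap at 0.22, Cx3cr1 at -0.20 and Csf1r at -0.17, Slc17a7 at -0.21 and Gad2 at 0.14, Clic6 at 0.36 and Folr1 at -0.30, and Acta1 at -0.40 and Ckm at -0.41. Among the oligodendrocyte markers they were Mag at -0.31 and Mog at -0.26, and among blood cell genes Alas2 at 1.02 and Hbb-b2 at 0.85, with none called. Leaving out 1 control moved Arc to -0.35 (control 205), Csf1r to -0.10 and Folr1 to -0.17 (control 237), Ckm to -0.26 (control 239) and Hbb-b2 to 1.31 (control 246). Gad2 was at 0.09 without control 237, and also without control 246. The sum over 6 blood cell genes was 57.9 to 199 CPM in controls and 90.2 to 257.5 CPM in mutators. The part of these genes, and of the time of day or handling at dissection, in the levels of the targets was not tested.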

How the data were processed

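Cerebral poly(A) RNA was sequenced as 100-base paired reads, without strand marking, so reads of overlapping antisense genes cannot be told apart. The authors aligned the reads with TopHat2 2.0.6 and Bowtie2 2.0.2.0 to mm9, counted them per gene and per exon bin with HTSeq 0.5.3p9, and deposited counts that were not normalized. The deposited table of read totals also holds percent of reads aligned. It was used only to set depth beside counts. The authors' comparison tables, which hold fold changes and p-values from DESeq and DEXSeq, were not used.

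The members and lists were chosen with earlier results of these data known. Named were all members and, of each list, the called genes (up to 4 by size of change) or else the 2 with the lowest p, the 5 genes most like Fkbp5, Sgk1 and Plin4 among those with a mean of at least 1 CPM, and the 3 member bins with the lowest p. Per1, Dusp1, Txnip, Ddit4 and Acta2 were named outside this rule.

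Genes kept by filterByExpr entered the quasi-likelihood test of edgeR 4.0.16 (R 4.3.3) with TMM scaling and robust dispersions, and log2 CPM used a prior count of 2. The SE is the log2 fold change divided by the square root of F. Exon bins were tested with diffSpliceDGE, leaving out 20.6% to 23.4% of reads that lay in no bin. The gene and exon tests were tried on simulated data. There edgeR recovered 199 of 200 changed genes, on 17825 genes, and diffSpliceDGE recovered 178 of 200 changed bins, on 66883 bins. Alternatives used DESeq2 1.42.0, limma 3.58.1, sva 3.50.0, other normalizations, filters and samples. Positions and bins used the GENCODE annotation of Ensembl 65 on the same genome build, later than the authors' release, and bin numbers matched the deposited ones for all 10 genes. The labels name separate mice, so the p-values cover the spread between animals.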

Additional observations from a re-analysis of the deposited data

How the results depend on the processing

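No member changed direction in any of 19 alternatives. Members called rose from 1 to 3 with DESeq2, and leaving out each mouse gave 1 to 2, the 2 without mutator 217. Genes called over the whole table were 223, against 615 with DESeq2, 346 with no filter on low counts and 50 with the WT/WT controls only. Leaving out each mouse gave 50 to 412, with 412 without control 205 and 50 without control 237, the WT/D257A mouse, which is the same fit as the WT/WT controls only. List genes called were 4, against 16 with DESeq2 and 2 with the WT/WT controls only, and 1 to 9 on leaving out each mouse. Exon bins called were 49, against 25 with limma and 21 with merged groups left out, and 5 to 186 on leaving out each mouse, with none in a member. Pairs of members under an adjusted p of 0.05 by r were 6, and 0 on leaving out each mutator. There the exact test has too few orders for 1 pair alone to pass. The log2 fold change of Retn ran from -0.47 to 0.027 on leaving out each mouse, above 0 only without control 239. The causes were not tested. No paired analysis was possible because the labels give the groups no shared replicate numbers.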
